A study of Mus musculus with 2 samples.

Results

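The tubulin isotypes described here were 9 genes chosen by symbol from a table of 18987 genes: the alpha-tubulin genes Tuba1a, Tuba1b, Tuba1c and Tuba4a, the beta-tubulin genes Tubb2a, Tubb4b, Tubb5 and Tubb6, and the gamma-tubulin gene Tubg1. Gene counts came from RAW264.7 cells, a mouse macrophage line that becomes osteoclasts when given the cytokine RANKL. There were 2 libraries, 1 from cells carrying an shRNA against Cpeb4, which encodes an RNA-binding protein of cytoplasmic polyadenylation, and 1 from cells carrying a control shRNA. Both cultures had been plated at 7500 cells per cm2, had received 100 ng/ml RANKL 24 h later, and were collected on day 3 according to the series title. The labels do not say how the shRNAs were delivered or whether the cells were clones or pools.

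Microtubules are built from heterodimers of 1 alpha-tubulin and 1 beta-tubulin, each encoded by several genes whose products are called isotypes. Isotypes are alike over most of their length and differ chiefly in the acidic tail at the carboxyl end, where enzymes attach glutamates, glycines or remove a tyrosine. Gamma-tubulin does not form the filament but seeds it, within a ring complex at the centrosome and other organising centres. In osteoclasts, microtubules help to arrange podosomes, the actin-based adhesions of the resorbing cell, and the beta isotype encoded by Tubb6 is known there for its effect on microtubule and actin dynamics. Cycling cells need tubulin for the mitotic spindle.

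With 1 library per group every difference compares these libraries, with no replicate check, no test and no estimate of variation between cultures. Values are given as CPM, a gene's counts per 1000000 counts of the library, after TMM scaling, and ratios are Cpeb4 shRNA over control shRNA on the log2 scale, so that 1 is a 2-fold higher level. Intervals cover counting error at 95% only. Total counts were 119350322 in the Cpeb4 shRNA library and 79399680 in the control shRNA library. Cpeb4 itself had 13491 counts in the Cpeb4 shRNA library and 25270 in the control shRNA library, a log2 ratio of -1.73 (-1.76 to -1.70). The table held 9 of 10 macrophage markers. Of the 7 that averaged 1 CPM or more, 1 (Cd68, -1.04) was at least 2-fold lower under TMM scaling, none was at least 2-fold higher, and 2 (Lyz2 and Cd14) had ratios above 0. For all genes averaging as much, 11.8% were at least 2-fold lower and 14.6% higher. Csf1r and Spi1, the genes of the receptor and a transcription factor of this lineage, were present at 1790 and 535 CPM in the Cpeb4 shRNA library and at 2736 and 694 CPM in the control shRNA library. Adgre1, a surface antigen gene of mature macrophages, stood at 0.781 CPM in the Cpeb4 shRNA library and 0.164 CPM in the control shRNA library, and Fcgr1, an antibody receptor gene, at 0.147 CPM in the Cpeb4 shRNA library and 1.20 CPM in the control shRNA library. Of the 31 markers listed for neurons, megakaryocytes, fibroblasts, lymphoid and ciliated cells, 11 were in the table, and no one of those 5 groups summed to more than 2.74 CPM in the Cpeb4 shRNA library or 2.58 CPM in the control shRNA library.

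The mixture of beta-tubulin transcripts differed between the libraries. Tubb5 was the leading beta isotype in the Cpeb4 shRNA library and Tubb6 in the control shRNA library. Per kb of exon, Tubb6 made up 30.8% of the summed beta-tubulin level in the Cpeb4 shRNA library and 75.6% in the control shRNA library. Tubb5 made up 45.8% and Tubb4b 22.7% in the Cpeb4 shRNA library, against 13.0% and 10.6% in the control shRNA library. Tubb2a stayed under 1% of the class in both. These shares are ratios within a library, so the scaling between libraries does not enter them.

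**Figure D1:**
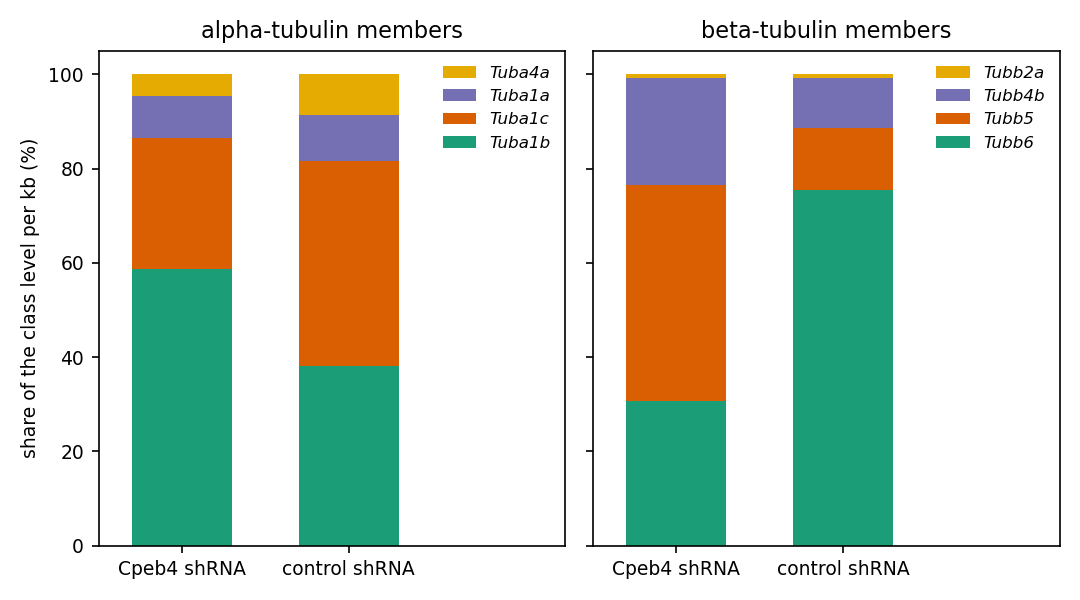
Share of each isotype in the summed level per kb of exon of the alpha-tubulin members (left panel) and the beta-tubulin members (right panel), in percent, for the Cpeb4 shRNA library and the control shRNA library (1 library each, stacked to the whole). Tubb6 took 30.8% of the beta class in the Cpeb4 shRNA library and 75.6% in the control shRNA library, and Tuba1b took 58.8% of the alpha class in the Cpeb4 shRNA library and 38.1% in the control shRNA library.

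Tubb6, the broadly expressed beta isotype studied in osteoclasts and muscle, had 51036 counts (394 CPM) in the Cpeb4 shRNA library and 65244 counts (891 CPM) in the control shRNA library. Its log2 ratio was -1.18 (-1.19 to -1.16), 2.26-fold lower, and it was the 1 member of 9 at least 2-fold lower under TMM scaling, against 11.8% of all genes averaging 1 CPM or more. Tubb6 (ENSMUSG00000001473) lies on mm10 chromosome 18 from 67390717 to 67402749 on the plus strand and overlaps no other annotated gene. Under total-count scaling its ratio was -0.94, short of 2-fold. The markers of osteoclasts were lower in the same library: 9 of 10 were at least 2-fold lower, none was higher, their median was -2.14, and they summed to 11299 CPM in the Cpeb4 shRNA library and 49814 CPM in the control shRNA library. Nfatc1, the osteoclast transcription factor, was the marker within 2-fold (-0.05). The part of osteoclast content in the Tubb6 value was not tested, and fewer cells of a type cannot be told apart from less RNA per cell in such bulk samples.

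Tubb5, a beta isotype prominent in dividing cells, had the highest ratio of the 9 genes. It had 103702 counts (801 CPM) in the Cpeb4 shRNA library and 15370 counts (209.9 CPM) in the control shRNA library, a log2 ratio of 1.93 (1.91 to 1.96), which is 3.82-fold higher. Per kb of exon, Tubb5 stood at 1.49 times the level of Tubb6 in the Cpeb4 shRNA library and at 0.173 times in the control shRNA library. Tubb4b, a broadly expressed beta isotype also found in cilia, had 32317 counts (249.8 CPM) in the Cpeb4 shRNA library and 7822 counts (106.8 CPM) in the control shRNA library. Its log2 ratio was 1.23 (1.19 to 1.26). Tubb2a, best known from neurons, was scarce in both, with 821 counts (6.35 CPM) in the Cpeb4 shRNA library and 472 counts (6.44 CPM) in the control shRNA library. Its log2 ratio of -0.02 had an interval on both sides of 0 (-0.19 to 0.14), and total-count scaling placed it at 0.21.

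How far counts can be assigned to single isotypes depends on their sequences. The last 75 coding bases, which encode the carboxyl-terminal tail and the stop codon, are shown for 3 of the beta genes because isotypes are known to differ most there. They are 5′ to 3′ from the representative GENCODE M21 transcript of each gene, with capitals for bases that differ from Tubb5 or have no partner in it when the whole coding sequences were aligned.
Tubb5: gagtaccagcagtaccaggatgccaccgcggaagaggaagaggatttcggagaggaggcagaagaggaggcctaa
Tubb4b: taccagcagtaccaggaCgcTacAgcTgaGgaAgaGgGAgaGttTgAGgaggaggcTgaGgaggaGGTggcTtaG
Tubb2a: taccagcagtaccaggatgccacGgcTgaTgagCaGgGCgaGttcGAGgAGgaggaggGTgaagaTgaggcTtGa

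Tubb4b differed from Tubb5, or had no partner in it, at 20 of these bases and Tubb2a at 18. Over the aligned coding bases Tubb4b and Tubb2a were 82.4% and 84.6% identical to Tubb5. Only 0.115% of the 50-base stretches of Tubb5 and 0 of those of Tubb6 occurred in another gene's transcript. The contrast between Tubb5 and Tubb6 was thus the one least open to shared reads among the abundant members. For Tubb4b the share was 55.5%, mostly with the processed pseudogenes Tubb4b-ps1 and Tubb4b-ps2. Tubb4b-ps1 had 852 counts in the Cpeb4 shRNA library and 149 in the control shRNA library, a log2 ratio of 1.69. For Tubb2a the share was 49.6%, mostly with Tubb2b, which had 359 counts (2.77 CPM) in the Cpeb4 shRNA library and 150 counts (2.05 CPM) in the control shRNA library. For Tuba4a it was 48.8%, nearly all with Stk16, a kinase gene on the opposite strand that had 4862 counts in the Cpeb4 shRNA library and 2929 in the control shRNA library. Tuba4a lies on chromosome 1 from 75214228 to 75219865 on the minus strand, Tubb4b on chromosome 2 from 25222160 to 25224702 on the minus strand, overlapping Fam166a, and Tubb2a on chromosome 13 from 34074274 to 34078007 on the minus strand. Tubb5 lies on chromosome 17 from 35833921 to 35838306 on the minus strand and overlaps no annotated gene.

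The alpha-tubulin genes were all above 0 in log2 ratio, and summed they were 2.23-fold higher, with 188255 counts (1455 CPM) in the Cpeb4 shRNA library and 47705 counts (651 CPM) in the control shRNA library. Tuba1b, the alpha isotype abundant in proliferating cells, had 100490 counts (777 CPM) in the Cpeb4 shRNA library and 15480 counts (211 CPM) in the control shRNA library. Its log2 ratio was 1.88 (1.85 to 1.90), next to that of Tubb5. Tuba1a, the alpha isotype prominent in developing neurons, had 14805 counts (114 CPM) in the Cpeb4 shRNA library and 3843 counts (52.5 CPM) in the control shRNA library, a ratio of 1.12. Tuba1c, a widely expressed alpha isotype, had 57703 counts (446 CPM) in the Cpeb4 shRNA library and 21488 counts (293 CPM) in the control shRNA library, a ratio of 0.60. Tuba4a, whose product ends without the tyrosine encoded by most other alpha genes, had 15257 counts (118 CPM) in the Cpeb4 shRNA library and 6894 counts (94.1 CPM) in the control shRNA library, a ratio of 0.33. So the alpha genes ranged from less than 1.5-fold to over 3-fold higher, and none was lower.

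The alpha genes are much closer to one another in sequence, which limits how counts can be assigned to each. Over the whole coding sequence Tuba1a and Tuba1c were 98.3% and 98.4% identical to Tuba1b, and Tuba4a was 85.6% identical. Of all 50-base stretches of the transcript, 83.1% of those in Tuba1b, 75.5% in Tuba1a and 61.0% in Tuba1c also occurred in a transcript of another gene, mostly one another and further annotated genes of like sequence. For example, Gm14150, which shared 50-base stretches with Tuba1b, was listed with 3911 counts in the Cpeb4 shRNA library and 673 in the control shRNA library. The sources used here do not say how such reads were divided, so the split among Tuba1a, Tuba1b and Tuba1c is uncertain. Taken as 1 group these 3 genes had 172998 counts in the Cpeb4 shRNA library and 40811 in the control shRNA library, a log2 ratio of 1.26 (1.25 to 1.28). Tuba1a and Tuba1b (chromosome 15, 98949837 to 98953703 and 98931425 to 98934565, minus strand) also overlap Gm49450, an annotated gene on the same strand with 1814 counts in the Cpeb4 shRNA library and 485 in the control shRNA library. Tuba1c lies on the plus strand of chromosome 15, from 99029891 to 99038110.

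**Figure D2:**
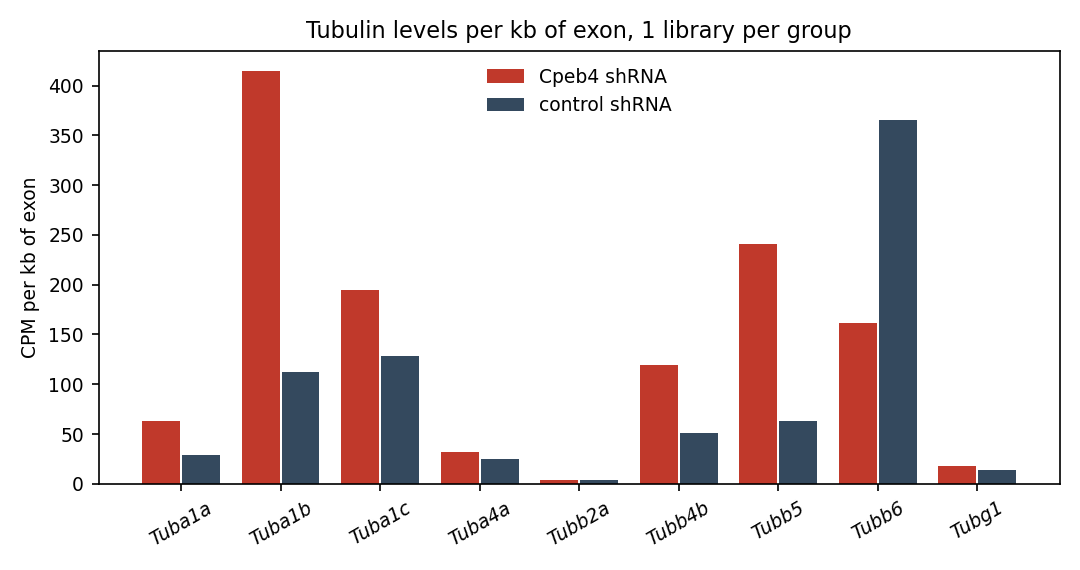
Level of each tubulin member in CPM per kb of exon (bars from 0) in the Cpeb4 shRNA library, left of each pair, and the control shRNA library, right (1 library each, no error bars). Tuba1b was highest in the Cpeb4 shRNA library at 414 and Tubb6 in the control shRNA library at 366, while Tubb2a was near 4 in both.

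Within the alpha class, Tuba1b held 58.8% of the level per kb in the Cpeb4 shRNA library and 38.1% in the control shRNA library. Tuba1c, which led in the control shRNA library, held 27.7% in the Cpeb4 shRNA library and 43.4% in the control shRNA library. Tuba1a held 9.01% in the Cpeb4 shRNA library and 9.85% in the control shRNA library. Tuba4a held 4.52% in the Cpeb4 shRNA library and 8.61% in the control shRNA library. When the longest transcript replaced the exon union as length, Tuba4a rather than Tuba1a ranked behind Tuba1c and Tuba1b in the control shRNA library (10.0% against 8.78%).

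Across the family, levels per kb of exon were highest in the Cpeb4 shRNA library for Tuba1b (414 CPM per kb), followed by Tubb5 (241), Tuba1c (195), Tubb6 (162) and Tubb4b (119.6). In the control shRNA library the order was Tubb6 (366), Tuba1c (128), Tuba1b (113), Tubb5 (63.1) and Tubb4b (51.2). The remaining genes, Tuba1a, Tuba4a, Tubg1 and Tubb2a, came last in that order in both, from 63.5 down to 3.94 in the Cpeb4 shRNA library and from 29.1 down to 4.003 in the control shRNA library. Without replicates the spread behind neighbouring levels is unknown. Summed over the class, beta-tubulin stood at 0.747 times the alpha-tubulin level per kb in the Cpeb4 shRNA library and at 1.64 times in the control shRNA library. Both values depend on the exon lengths. In counts not divided by length, the Cpeb4 shRNA library had 187876 for beta and 188255 for alpha, and the control shRNA library 88908 and 47705.

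Tubg1, which encodes the main gamma-tubulin of microtubule nucleation, had 5403 counts (41.8 CPM) in the Cpeb4 shRNA library and 2235 counts (30.5 CPM) in the control shRNA library. Its log2 ratio was 0.45 (0.38 to 0.52), within 2-fold. The gene lies on chromosome 11 from 101119938 to 101126419 on the plus strand.

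All 9 members passed a filter on low values (1 CPM or more on average over both libraries). Among them 4 were at least 2-fold higher (Tubb5, Tuba1b, Tubb4b and Tuba1a), 1 was lower by as much (Tubb6) and 4 were within 2-fold, with a median log2 ratio of 0.60. For comparison, 14.6% of the 12086 genes that passed were higher by 2-fold or more, 11.8% were lower by as much, and the median was 0.05. The summed members had 381534 counts (2949 CPM) in the Cpeb4 shRNA library and 138848 counts (1896 CPM) in the control shRNA library, a log2 ratio of 0.64 (0.63 to 0.65). Without Tubb6 the other 8 summed to a 2.54-fold higher level. The beta class as a whole was 1.20-fold higher, and 3.27-fold higher without Tubb6.

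**Figure D3:**
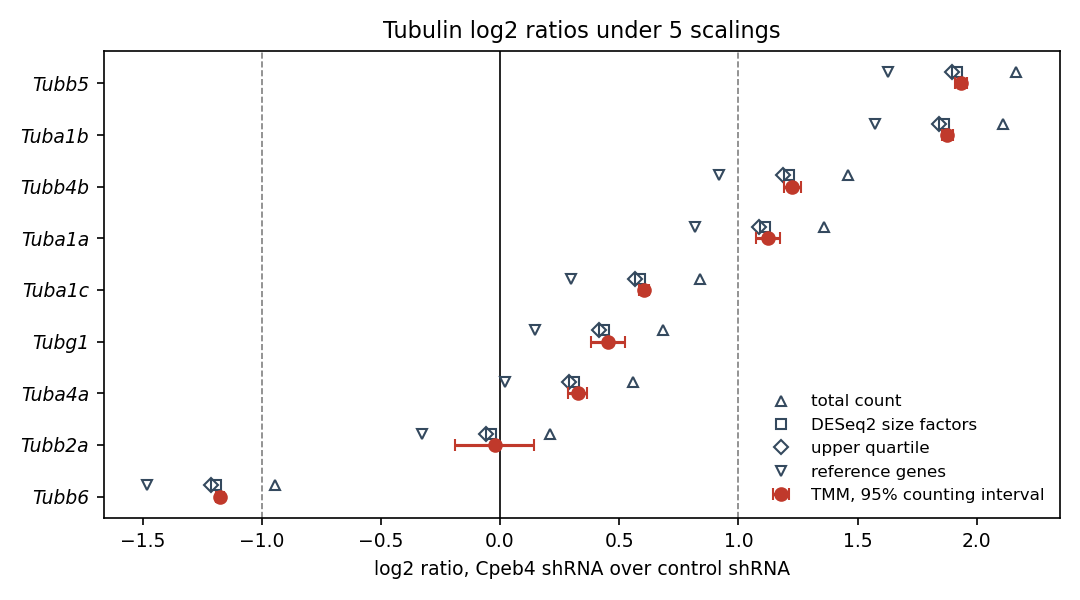
Log2 ratio of each tubulin member, Cpeb4 shRNA over control shRNA, under TMM scaling (filled circles, bars are 95% counting intervals) and 4 other scalings (open symbols), with dashed lines at 2-fold. Tubb5 and Tuba1b lay past 2-fold under all 5 scalings, Tubb4b and Tuba1a fell short under reference-gene scaling, and Tubb6 fell short under total-count scaling.

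Of the 20 proliferation genes, 20 were at least 2-fold higher in the Cpeb4 shRNA library, against 14.6% of all genes past the filter. Their median log2 ratio was 4.35. They summed to 3303 CPM in the Cpeb4 shRNA library and 259.8 CPM in the control shRNA library. Cenpf, a kinetochore protein gene, was highest at 5.38, and Pcna, the gene of the DNA replication clamp, lowest at 2.18. Mki67, the cycling-cell marker, had 68525 counts in the Cpeb4 shRNA library and 1184 in the control shRNA library. The part of proliferation in the tubulin values was not tested.

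The 3 named members with the highest ratios are shown with their RefSeq promoters (GRCm38.p6, 250 bases before to 50 after the start, minus strand) because they were higher together. They span chr17:35838252-35838551, chr2:25224653-25224952 and chr15:98934341-98934640. On either strand, capitals mark the CCAAT box, the cell cycle homology region (written TTTGAA for one form and TTCGAA for the other), the E-box CACGTG and the TATA box TATAAA.
Tubb5: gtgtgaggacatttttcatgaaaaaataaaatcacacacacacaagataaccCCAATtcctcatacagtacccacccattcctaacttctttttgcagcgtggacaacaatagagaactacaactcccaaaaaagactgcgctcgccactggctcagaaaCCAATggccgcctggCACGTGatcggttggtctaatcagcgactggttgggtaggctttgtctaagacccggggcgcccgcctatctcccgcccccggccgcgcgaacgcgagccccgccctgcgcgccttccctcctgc
Tubb4b: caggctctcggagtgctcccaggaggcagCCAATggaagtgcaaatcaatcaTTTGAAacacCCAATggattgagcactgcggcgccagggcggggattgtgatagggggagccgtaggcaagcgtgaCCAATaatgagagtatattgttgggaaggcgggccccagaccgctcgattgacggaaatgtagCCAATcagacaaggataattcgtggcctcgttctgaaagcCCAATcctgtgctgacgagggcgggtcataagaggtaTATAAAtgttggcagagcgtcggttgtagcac
Tuba1b: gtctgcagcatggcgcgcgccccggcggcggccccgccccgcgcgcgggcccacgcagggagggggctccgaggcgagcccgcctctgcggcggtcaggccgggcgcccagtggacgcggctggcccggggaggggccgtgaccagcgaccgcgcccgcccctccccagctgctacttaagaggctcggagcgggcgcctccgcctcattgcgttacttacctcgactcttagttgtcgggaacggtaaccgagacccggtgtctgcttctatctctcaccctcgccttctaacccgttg

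Tubb5 held 2 CCAAT matches and 1 CACGTG match, and Tubb4b held 5 CCAAT matches, 1 TTTGAA and 1 TATAAA. Tuba1b held none of these letters. GGGCGG, the letters of the SP1 site, was also searched but is not marked, and each of the 3 promoters held 2 matches. Among 32851 promoters of the same length, 37.4% held CCAAT, 17.9% TTTGAA, 1.56% TTCGAA, 7.15% CACGTG, 13.6% TATAAA and 35.7% GGGCGG. Among the other scanned members, Tuba1a and Tuba1c each held 1 CCAAT match, Tubb2a held 1 TATAAA match, and Tuba4a held none of the marked letters. GGGCGG was not particular to the 3 highest members: Tuba4a and Tubb2a also held 2 matches each, Tuba1a held 1 and Tuba1c 0. The E2F letters TTTCCCGC were in no scanned member and in 1.07% of all promoters. A match is a string of letters in the window and not evidence of binding.

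The letters of the cytoplasmic polyadenylation element, the sequence that CPEB proteins are known to bind (TTTTAT or TTTTAAT), were searched in the 3′ UTR of each member's representative transcript because the knocked-down gene encodes such a protein. They occurred once, in Tuba4a, 1236 bases before the annotated transcript end. No polyadenylation signal letters (AATAAA or ATTAAA) started within 50 bases of that end, nor of the end of Tuba1b. The match is shown in capitals with 10 bases on each side.
Tuba4a: gcttgtgaccTTTTAATtttaccttca

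The other 8 members held no match in 3′ UTRs of 101 to 1061 bases. Among 10422 genes past the filter with an annotated 3′ UTR, 60.3% held a match, but their median 3′ UTR was 1018 bases. Among genes whose 3′ UTR was within 1.25-fold of the member's in length, the share with a match ran from 13.9% for Tuba1c to 64.8% for Tubb5 and 73.4% for Tuba4a.

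Other tubulin genes in the table were scarce. Tube1, the epsilon-tubulin gene of centrioles, had 778 counts (6.01 CPM) in the Cpeb4 shRNA library and 68 counts (0.928 CPM) in the control shRNA library, a log2 ratio of 2.70 (2.34 to 3.07). Tubd1, the delta-tubulin gene of centrioles, had 1134 counts in the Cpeb4 shRNA library and 348 in the control shRNA library (0.88). Tubb1, the megakaryocyte beta isotype, had 82 counts in the Cpeb4 shRNA library and 55 in the control shRNA library. Tubg2, the other gamma-tubulin gene, had 17 counts in the Cpeb4 shRNA library and 15 in the control shRNA library. Neither passed the filter, nor did Tubb4b-ps2, with 9 counts in the Cpeb4 shRNA library and 2 in the control shRNA library. Tuba3a, Tuba3b, Tuba8, Tubal3, Tubb3 and Tubb4a are not analysed here.

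Genes that make and organise microtubules varied by role. The gamma-tubulin ring complex and its recruiters had a median log2 ratio of 0.77. Of these 20 genes, 0 were at least 2-fold lower, against 11.8% of all genes, and 9 were higher by as much, against 14.6%. Among them were Tubgcp2, a core subunit of the ring complex, with 43.8 CPM in the Cpeb4 shRNA library and 15.9 CPM in the control shRNA library (1.46), and Haus1 (1.67), Haus6 (1.62) and Haus3 (1.44), which encode subunits of augmin, which brings the ring complex to spindle microtubules. Mzt1, a small ring complex protein gene, was lowest at -0.17. The CCT chaperonin folds tubulin with the help of prefoldin. The list of 16 genes also holds Pdcl3 (0.21) and Txndc9 (-0.16), which encode subunits of neither complex. All 16 were within 2-fold, as were 8900 of the 12086 genes past the filter. Of the 16, 14 were above 0, and the median was 0.66. Cct5 (0.99) and Cct7 (0.93) were highest and Pfdn1 (-0.63) lowest. Total-count scaling placed 7 of the 16 at least 2-fold higher, against 20.8% of all genes.

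The list for the cofactors that assemble the heterodimer after folding had a median of -0.51, with 3 of 7 above 0. It holds Tbcel (-0.70) and Arl2 (-0.63) beside the cofactor genes Tbca to Tbce. Of Tbca to Tbce alone, Tbcd (0.20) held the middle value, with Tbcc at -0.51 and Tbce at 0.29. Tbcb, which acts on alpha-tubulin, was the 1 of 7 at least 2-fold lower, against 11.8% of all genes. It had 29.7 CPM in the Cpeb4 shRNA library and 61.1 CPM in the control shRNA library (-1.04), and fell short of 2-fold under total-count scaling. Tbca, which acts on beta-tubulin, was at 0.38. Tubulin mRNA autoregulation is the decay of tubulin mRNA that follows a surplus of free tubulin. All 6 genes listed for it were within 2-fold, as were 8900 of the 12086 genes past the filter. Their median was 0.21, and -0.10 under reference-gene scaling. Ttc5, whose product recognises nascent tubulin, was at 0.19 and Cnot11, a deadenylase subunit gene in the same route, at 0.22.

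Enzymes that modify tubulin went both ways under TMM scaling. At least 2-fold higher were 4 of 16, against 14.6% of all genes. Lower by as much were 2, a share near the 11.8% of all genes. The median log2 ratio moved from -0.07 to 0.16 with total-count scaling. Both lower genes were scarce. Vash1 had 0.556 CPM in the Cpeb4 shRNA library and 2.32 CPM in the control shRNA library. Ttll11 had 0.897 CPM in the Cpeb4 shRNA library and 2.42 CPM in the control shRNA library. With 2 CPM added to each level, 2 of the 16 were at least 2-fold higher, against 10.2% of all genes. Lower by as much were 0, against 8.68%. Ttll4, a glutamylase gene, had 72.0 CPM in the Cpeb4 shRNA library and 32.8 CPM in the control shRNA library (1.13). Hdac6, the tubulin deacetylase gene, was at 1.001, just past the 2-fold threshold, and Ttl, which restores the terminal tyrosine, at -0.42. Microtubule destabilisers and severing enzymes had a median of 1.53, and 5 of 10 were at least 2-fold higher, against 14.6% of all genes. Stmn1, which binds free tubulin dimers, had 92.9 CPM in the Cpeb4 shRNA library and 4.37 CPM in the control shRNA library (4.41). The mitotic kinesin genes Kif18b (4.85), Kif2c (4.30) and Kif18a (2.17) and the severing enzyme gene Fignl1 (3.99) were the others. Spast and Katna1, which also encode severing enzymes, were within 2-fold at 0.11 and 0.28.

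Plus-end and lattice-binding proteins showed a median of 0.09 (-0.21 with scaling to reference genes). At least 2-fold higher were 7 of 22, against 14.6% of all genes, and 2 were lower by as much, against 11.8%. The spindle genes Prc1 (4.63), Ckap2 (4.23), Tpx2 (3.72) and Tacc3 (3.29) were highest. Mtus2 (-1.10) and Mtus1 (-5.81, with 43 counts in the Cpeb4 shRNA library and 1363 in the control shRNA library) were the lower genes. Mapre1, the gene of the plus-end tracker EB1, was at -0.02, and Map4, the gene of a widespread lattice-binding protein, at 0.18. Of all genes in these microtubule lists, Clasp2 (0.66), Atat1 (0.62) and Cnot1 (0.66) had log2 ratios nearest to the summed tubulin members, which with 2 libraries rests on a single ratio each.

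**Figure D4:**
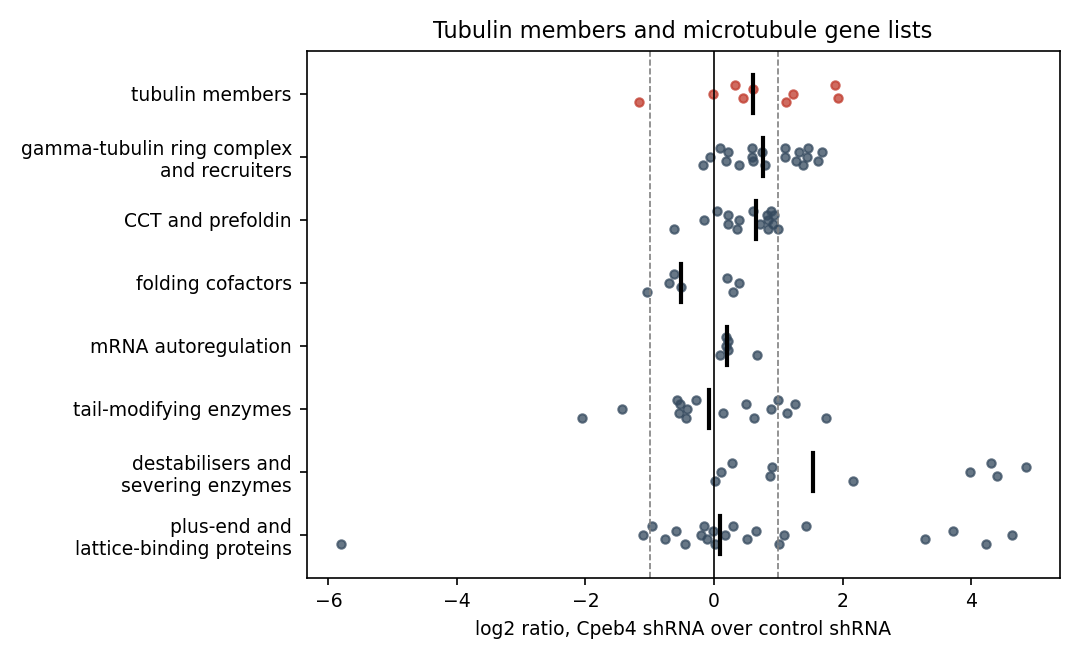
Log2 ratio, Cpeb4 shRNA over control shRNA, of the tubulin members and of each gene past the filter in 7 microtubule lists (1 point per gene, black bars are medians, dashed lines are 2-fold). Medians ran from -0.51 for the folding cofactors (7 genes, Tbcel and Arl2 included) to 1.53 for destabilisers and severing enzymes, with the tubulin members at 0.60.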

How the data were processed

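The authors deposited whole-number read counts per gene for 2 libraries, 1 per group. Reads had been aligned with HISAT2 to mm10, per the submitters' processing notes. The sources used here do not name the counting tool or annotation, or say how strand and reads with several alignments were treated. Every listed gene had 1 count or more in each library. In the control shRNA library 585 genes stood at 4 counts, against 444 at 3 and 286 at 5, so the values may be estimates in part.

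Counts were scaled with TMM in edgeR 4.0.16 (R 4.3.3), with factors of 1.08 for the Cpeb4 shRNA library and 0.922 for the control shRNA library. Genes averaging 1 CPM or more were kept. Intervals are exact Clopper-Pearson intervals at 95% of a gene's share of the 2 counts. They cover counting error only. 3 counts equalled 0.0232 CPM in the Cpeb4 shRNA library and 0.041 CPM in the control shRNA library. With 1 library per group there was no test, and genes were counted by size, at least 2-fold. Exon lengths, coordinates and transcripts came from GENCODE M21 (GRCm38, the same assembly as mm10), which held 18935 of the 18987 identifiers. RefSeq promoters of 7 members were scanned. Tubb6 was left out of that scan, and its promoter is not reported here. Representative transcripts were chosen by APPRIS tag, then coding length. Alpha-tubulin coding sequence is not reported here. Named genes were the members, other tubulin rows, Cpeb4, and up to 4 highest and 4 lowest genes of each list past 2-fold at 10 CPM or more on average, and the 3 genes nearest the summed members. Other list genes, and the markers, were named after their values were seen. The members and lists were chosen with earlier results of these data known. Computations were tested on simulated data.

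Alternatives were total-count, DESeq2 1.42.0, upper-quartile and reference-gene scaling (19 genes without tubulin), thinning, pseudocounts, other filters and thresholds, and other lengths and gene sets. Adding the rows that share 50-base stretches with a member, and grouping Tuba1a, Tuba1b and Tuba1c, were chosen after seeing the data. The added rows shared at least 5% of the stretches of a member, and Stk16 was left out of them.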

Additional observations from a re-analysis of the deposited data

How the results depend on the processing

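No paired analysis was possible because the study holds a single library of each kind. The count of members at least 2-fold higher was 2 with scaling to the reference genes, against 9.66% of all genes. At least 4-fold higher were 0, against 4.82% of all genes. The count at least 2-fold lower was 0 under total-count scaling, against 8.49% of all genes. At least 4-fold lower were 0, against 3.52%. The log2 ratio of the summed members was 0.87 with total-count, 0.62 with DESeq2, 0.60 with upper-quartile and 0.33 with reference-gene scaling. It was 0.60 with thinning and 0.65 with the added rows that share 50-base stretches, Stk16 left out. Cpeb4 lay at -1.49 with total-count, -1.76 with upper-quartile and -2.03 with reference-gene scaling. Tubb2a changed sign, to 0.21, with total-count scaling. The other 8 members kept their sign in all 7 alternatives, and Tuba4a came closest to 0, at 0.02 with reference-gene scaling. The Tubb6 share of the beta class differed by -44.8 percentage points (Cpeb4 shRNA minus control shRNA), and by -46.2 by raw counts. Total-count scaling moved every ratio by 0.23 and reference-gene scaling by -0.31. Of all genes past 2-fold, 55.4% were higher with TMM, 71.0% with total-count and 33.8% with reference-gene scaling. These scalings shift each ratio by a constant, which sets those changes. The 19 reference genes were themselves spread under TMM scaling, from -1.96 (Tfrc) to 1.01 (Rplp0), and their median of 0.31 sets the reference-gene shift. Gapdh, among these 19, had 10900 counts in the Cpeb4 shRNA library and 3736 in the control shRNA library. Depth was not the limit for the members: the smallest count was 472.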

Other observations

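Subunits of other cytoskeletal polymers differed in direction from each other. The actin genes Actb and Actg1 were lower, Actb with 1614 CPM in the Cpeb4 shRNA library and 2201 CPM in the control shRNA library (log2 ratio -0.45, within 2-fold) and Actg1 with 1049 CPM in the Cpeb4 shRNA library and 2663 CPM in the control shRNA library (-1.34). Vim, the intermediate filament gene vimentin, was at 0.31 under TMM scaling and at or near 0 under reference-gene scaling. The nuclear lamina genes Lmnb1 and Lmnb2 were at least 2-fold higher, Lmnb1 with 25994 counts in the Cpeb4 shRNA library and 665 in the control shRNA library (4.47) and Lmnb2 with 7672 counts in the Cpeb4 shRNA library and 1106 in the control shRNA library (1.97). Lmna was at 0.01. Of the 12 rows in this list, which include 2 identifiers with the symbol Septin2, 3 were at least 2-fold higher and 1 was at least 2-fold lower. Among all genes past the filter, 14.6% were higher and 11.8% lower by as much.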
